A study of Papio anubis and Macaca fascicularis and Castor canadensis with 48 samples.

Results

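The iron genes described here are a list of 10: Hamp, Tfr2, Trf, Tfrc, Fth1, Ftl1, Slc40a1, Hfe, Cp and Ltf. They were taken by their mouse Ensembl gene IDs from a table of raw read counts with 16816 rows, and 7 of the 10 were measured. The 7 are Tfr2 (ENSMUSG00000029716), Tfrc (ENSMUSG00000022797), Hfe (ENSMUSG00000006611), Fth1 (ENSMUSG00000024661), Slc40a1 (ENSMUSG00000025993), Cp (ENSMUSG00000003617) and Ltf (ENSMUSG00000032496). Hamp, Trf and Ftl1 were not analysed here, so the hormone hepcidin, the plasma carrier transferrin and the light chain of ferritin are outside the results. The gene names are those of the list, since the table gives IDs alone.

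Iron circulates in plasma bound to transferrin and enters cells through transferrin receptor 1, the product of Tfrc. Hepatocytes also carry transferrin receptor 2 (Tfr2) and HFE, an MHC class I-like protein, and both take part in sensing circulating iron and in setting hepcidin output. Inside the cell iron is stored in ferritin, whose heavy chain (Fth1) is a ferroxidase. Iron leaves the cell through ferroportin (Slc40a1), which hepcidin blocks and degrades, and ceruloplasmin (Cp), a copper ferroxidase secreted mainly by the liver, oxidizes it for loading onto transferrin. Lactoferrin (Ltf) is an iron-binding relative of transferrin found in secretions and in neutrophil granules. Iron response elements in the messengers of Fth1, Slc40a1 and Tfrc are known to couple their translation or stability to cellular iron, so RNA levels of these genes need not follow their proteins.

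Bulk RNA sequencing covered 48 libraries from 8 mammal species, all labelled as male, wild-type adults, and young adults by the collection notes. Baboon (Papio anubis) gave 6 brains, 6 kidneys and 6 livers, and long-tailed macaque (Macaca fascicularis), called macaque below, gave 6 cerebella, 5 kidneys and 6 livers. Beaver (Castor canadensis) gave 2 brains and 2 livers, and these 3 species were collected at a primate center. An earlier collection gave 2 livers each of chipmunk (Tamias sibiricus) and sugar glider (Petaurus breviceps), 1 kidney and 1 liver of American black bear (Ursus americanus), 1 brain and 1 liver of white-footed mouse (Peromyscus leucopus), and 1 liver of tube-nosed bat (Murina leucogaster). Groups of 1 library have no replicates, and species and collection cannot be told apart for the species of the earlier collection. The labels do not say whether replicates are separate animals, so p-values measure the spread between these samples.

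Total counts ran from 6.33 M to 26.8 M per library. By rank correlation across genes, 43 of the 43 libraries with a replicate were closest to a library of their own group, and no replicates agreed within sampling noise. Organ and cell type markers were listed by symbol and could not be matched to the IDs, so the labelled organs were checked only through this similarity. Levels are given as CPM, the gene's counts per 1000000 counts of the library. Where a few genes take much of a library's counts, the CPM of its other genes falls. The TMM factors of the edgeR fits are meant to correct for such differences. They averaged 0.517 in baboon liver, 1.38 in kidney and 1.40 in brain. The share of counts held by the top liver genes is not given here. A fitted fold change against liver is therefore lower than the ratio of CPM values, and with total counts alone the all-gene median for baboon brain against liver was 1.48 on the log2 scale in place of 0.05. In whole organs, fewer cells of a type and less RNA per cell cannot be told apart.

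**Figure D1:**
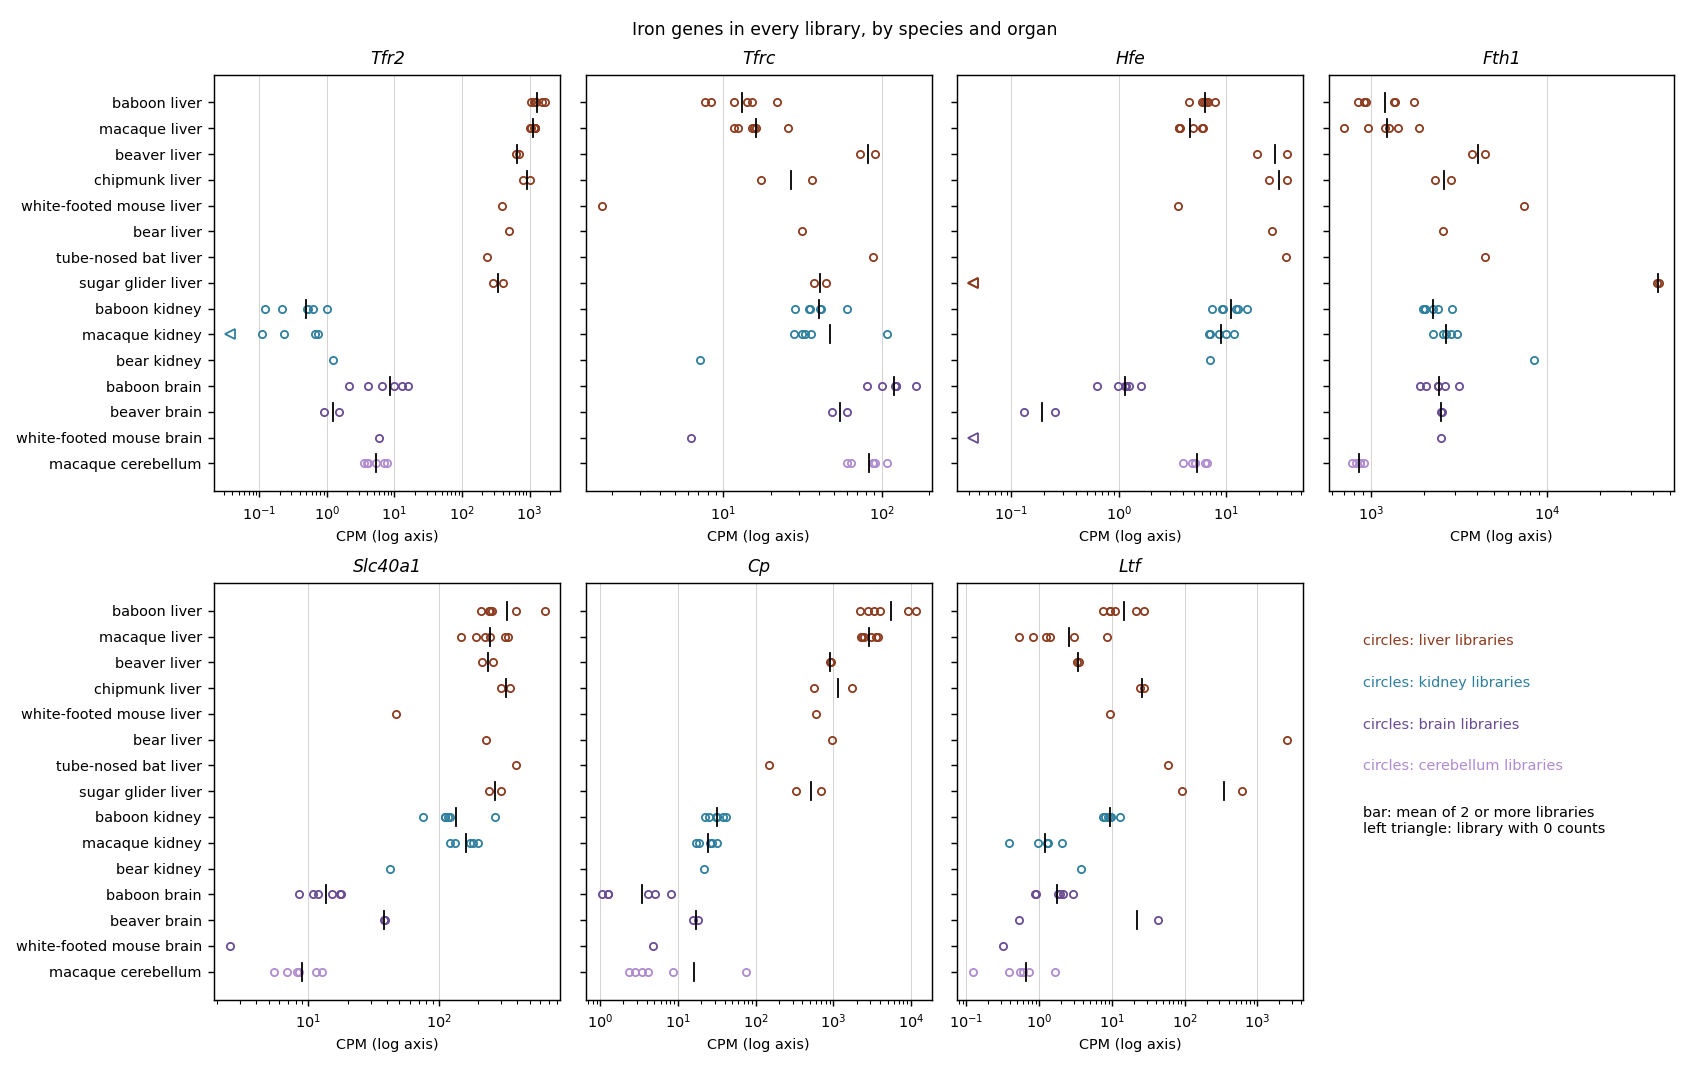
CPM (log axis) of the 7 iron genes in each of the 48 libraries, by species and organ, with circles for libraries, a bar for the mean of 2 or more libraries and a left triangle for a library with 0 counts. Tfr2 and Cp were higher in every liver than in any kidney, brain or cerebellum. Among livers, sugar glider stood apart for Fth1 (42715 CPM) and for Hfe (0 counts), and white-footed mouse brain also had 0 Hfe counts.

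Between organs of a single species, Tfr2, Cp and Slc40a1 were higher in liver in each of baboon, macaque and beaver, while Tfrc was higher in the brain or cerebellum than in the liver of the primates and lower in the brain of beaver. An edgeR p, adjusted across every gene in the fit, below 0.05 counts as a call. In baboon brain against liver 7 of the 7 measured iron genes were called, where 82.4% of all genes tested were called. In macaque cerebellum against liver it was again 7 of 7, with 81.9% of all genes called. In beaver brain against liver 6 of 7 were called, with 64.4% of all genes. In kidney against liver 6 of 7 were called in baboon, with 66.5% of all genes, and 4 of 7 in macaque, with 63.1%. In baboon brain against kidney 6 of 7 were called, with 77.3% of all genes, and in macaque cerebellum against kidney 4 of 7, with 75.8%. These counts are from fits without the replicate number as a block. With that block, macaque cerebellum against kidney also called Tfrc (0.74, edgeR adjusted p = 0.028) and Cp (-1.88, edgeR adjusted p = 0.0160). Baboon brain against liver then lost the call of Fth1 (-0.39, edgeR adjusted p = 0.0656). With 7 genes, each gene moves such a share by much, and these 7 comparisons share libraries and genes. The members' share is thus not read as above or below the background in any of them. The median log2 fold change of the 7 was -4.45 for baboon brain against liver, where the median of all genes was 0.05. It was -3.41 for macaque cerebellum against liver (all genes 0.06), -4.01 for beaver brain against liver (0.12), -2.02 for baboon kidney against liver (0.06) and -1.85 for macaque kidney against liver (0.02).

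**Figure D2:**
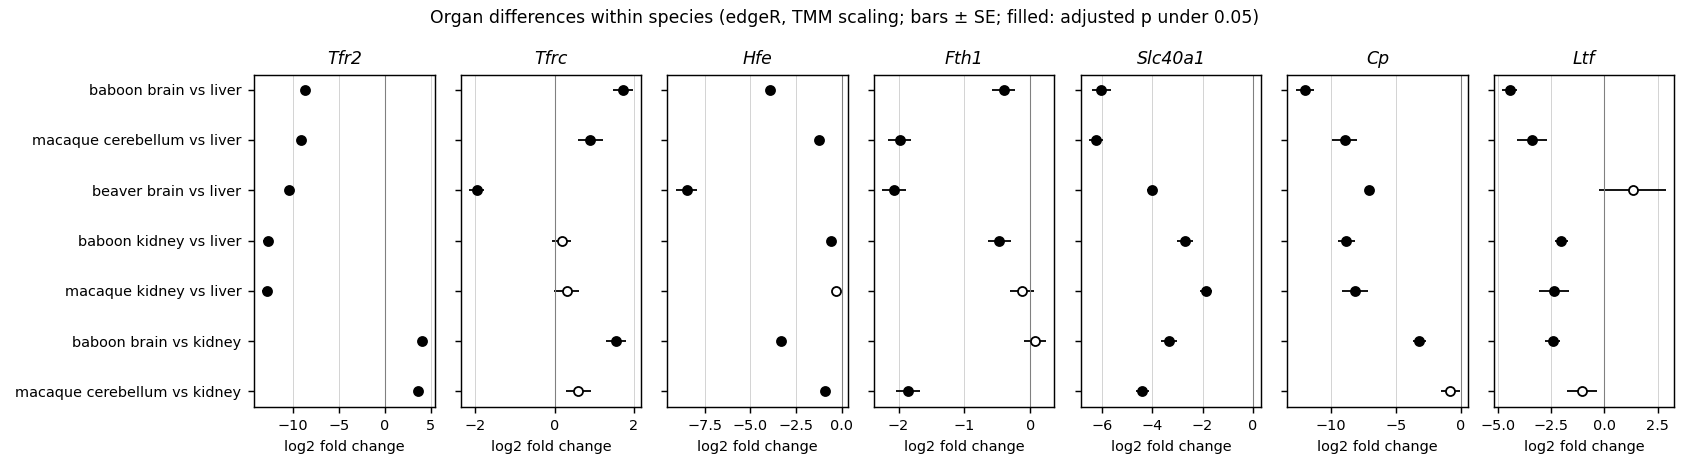
Fitted log2 fold changes (x axis) of the 7 iron genes for 7 organ comparisons within a species, with bars of ± SE and filled points where the adjusted p was under 0.05. Negative values are lower in the organ named before "vs". Tfr2, Cp and Slc40a1 lay left of 0 in each comparison with liver, and Tfrc lay right of 0 in both primates and left of 0 in beaver.

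Tfr2 was far higher in liver than in the other organs measured, which held at most 15.8 CPM in any brain, cerebellum or kidney. The 6 baboon livers held 1046 to 1671 CPM (median 1222), the 6 brains 2.10 to 15.8 CPM (median 8.18) and the 6 kidneys 0.122 to 0.993 CPM (median 0.521). No liver library overlapped with another organ, and the log2 fold change was -8.70 ± 0.48 (SE) for brain against liver (edgeR adjusted p = 4.35e-12) and -12.75 ± 0.58 for kidney against liver (edgeR adjusted p = 1.54e-12). The 6 macaque livers held 1015 to 1205 CPM (median 1178), a narrower span than in baboon. The macaque cerebella held 3.61 to 7.70 CPM (median 4.76), and the 5 kidneys held 0.752, 0.229, 0.112, 0.666 and 0 CPM. In macaque the log2 fold change was -9.20 ± 0.40 for cerebellum against liver (edgeR adjusted p = 3.32e-13) and -12.85 ± 0.52 for kidney against liver (edgeR adjusted p = 7.11e-13). The kidney values rest on at most 14 counts per macaque library and at most 18 per baboon library. The low brain level was still above that of kidney: 4.06 ± 0.46 on the log2 scale in baboon brain (edgeR adjusted p = 2.07e-07) and 3.65 ± 0.42 in macaque cerebellum (edgeR adjusted p = 3.12e-07). In beaver, the livers held 627 and 697 CPM and the brains 1.53 and 0.918 CPM, which gave -10.44 ± 0.35 on the log2 scale (edgeR adjusted p = 7.96e-05).

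Tfrc, the receptor used by most cells for transferrin-bound iron, was highest in brain or cerebellum and lowest in liver by mean CPM in the primates. The 6 baboon brains held 80.6 to 164 CPM (median 122), the kidneys 28.4 to 60.2 CPM (median 38.1) and the livers 7.66 to 21.9 CPM (median 12.9). The 3 organs did not overlap in CPM. Brain exceeded liver by 1.73 ± 0.25 on the log2 scale (edgeR adjusted p = 3.22e-06) and kidney by 1.55 ± 0.25 (edgeR adjusted p = 1.29e-05). Kidney and liver did not differ beyond their spread after TMM scaling, at 0.18 ± 0.24 (edgeR adjusted p = 0.529), although scaling by total counts gave 1.61 (edgeR adjusted p = 4.25e-06).

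In macaque, the 6 cerebella held 60.2 to 109 CPM of Tfrc (median 88.2) and the 6 livers 11.6 to 25.8 CPM (median 15.5), without overlap. Cerebellum exceeded liver by 0.91 ± 0.31 on the log2 scale (edgeR adjusted p = 0.0118). Of the 5 macaque kidneys, 4 held 32.8, 28.1, 31.5 and 36.0 CPM, and replicate 3 held 108.5 CPM, inside the range of the cerebella. Cerebellum against kidney gave 0.60 ± 0.32 (edgeR adjusted p = 0.0985). With the replicate number as a block it was 0.74 (edgeR adjusted p = 0.028), and without kidney replicate 3 it was 1.17 (edgeR adjusted p = 0.000106). Kidney against liver was not called, at 0.31 ± 0.32 (edgeR adjusted p = 0.420), it changed sign to -0.27 without kidney replicate 3 (edgeR adjusted p = 0.283), and total counts gave 1.55 (edgeR adjusted p = 0.000188).

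Beaver had more Tfrc in liver than in brain. The livers held 90.9 and 73.5 CPM and the brains 48.3 and 60.7 CPM, or -1.97 ± 0.20 on the log2 scale for brain against liver (edgeR adjusted p = 0.000949). A test of the difference between beaver and baboon in the brain to liver contrast was added after these values were seen. It used the 16 brain and liver libraries of both species and called 6 of the 7 iron genes, where 39.6% of all genes were called. The Tfrc contrast was lower in beaver by a log2 difference of -3.71 ± 0.49 (edgeR adjusted p = 3.03e-05). The Fth1 contrast was also lower in beaver, at -1.68 ± 0.35 (edgeR adjusted p = 0.00139). The contrasts of Slc40a1 (2.00 ± 0.50, edgeR adjusted p = 0.00530) and Cp (4.89 ± 1.06, edgeR adjusted p = 0.00185) were higher in beaver, where liver exceeded brain by less than in baboon. Tfr2 was not called in this test, at -1.76 ± 0.77 (edgeR adjusted p = 0.0814). It was called without baboon brain replicate 2 (-1.98, edgeR adjusted p = 0.0121), in the edgeR fit of all 48 libraries (-1.80, edgeR adjusted p = 0.0412) and by DESeq2 (-1.82, adjusted p = 0.0319). Which brain regions the samples hold is not given in the labels.

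Hfe was a low-level transcript in all organs. The 6 baboon livers held 4.47 to 7.94 CPM (median 6.33), the kidneys 7.39 to 15.5 CPM (median 10.8) and the brains 0.631 to 1.62 CPM (median 1.16). Every baboon brain lay below every liver and kidney, with a log2 fold change of -3.91 ± 0.24 against liver (edgeR adjusted p = 2.54e-11) and -3.31 ± 0.24 against kidney (edgeR adjusted p = 3.35e-10). Macaque cerebellum held 4.00 to 6.62 CPM (median 5.12) and overlapped with the macaque livers at 3.61 to 6.10 CPM (median 4.28). All cerebella lay below the 5 macaque kidneys at 6.87, 7.0, 10.04, 11.7 and 8.64 CPM. Cerebellum was lower than liver at -1.25 ± 0.19 after TMM scaling (edgeR adjusted p = 8.75e-06), but total counts gave 0.20 (edgeR adjusted p = 0.354), and it was lower than kidney at -0.94 ± 0.20 (edgeR adjusted p = 0.000317). Baboon kidney was lower than liver at -0.60 ± 0.21 after TMM scaling (edgeR adjusted p = 0.0172) and higher by 0.81 with total counts (edgeR adjusted p = 0.00136). With upper-quartile factors it was -0.48 and not called (edgeR adjusted p = 0.0510). Macaque kidney was not called against liver (-0.32 ± 0.20, edgeR adjusted p = 0.170), and total counts gave 0.93 (edgeR adjusted p = 0.000430). In beaver, liver held 19.3 and 37.1 CPM of Hfe and the 2 brains 6 counts in all, taken as 3 read pairs. The ratio of liver to brain was 145 on the CPM scale, with an exact 95% Poisson counting interval of 49.7 to 704.

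Fth1, the ferritin heavy chain, was abundant everywhere, and its organ order in primates depended on the scaling. The 6 baboon livers held 841 to 1765 CPM (median 1139.6), the kidneys 1986 to 2886 CPM (median 2141) and the brains 1906 to 3145 CPM (median 2417). On CPM all brains and kidneys were thus above all livers. After TMM scaling the order turned, with log2 fold changes of -0.40 ± 0.17 for brain (edgeR adjusted p = 0.0383) and -0.47 ± 0.17 for kidney (edgeR adjusted p = 0.0219) against liver, while total counts gave 1.02 (edgeR adjusted p = 4.14e-05) and 0.92 (edgeR adjusted p = 0.000127). The TMM call for brain was lost in 7 of 12 fits that left out 1 library, and in the fits with RLE factors (edgeR adjusted p = 0.0858), upper-quartile factors (edgeR adjusted p = 0.0568), all 48 libraries (edgeR adjusted p = 0.148) and DESeq2 (adjusted p = 0.0671). The call for kidney was lost with upper-quartile factors (edgeR adjusted p = 0.0807) and in 2 of 12 fits that left out 1 library, without kidney replicate 4 (edgeR adjusted p = 0.0523) or liver replicate 5 (edgeR adjusted p = 0.0692). Brain and kidney of baboon did not differ beyond their spread (0.07 ± 0.17, edgeR adjusted p = 0.719).

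Macaque cerebellum was low in Fth1 under each scaling. The 6 cerebella held 781 to 912 CPM (median 863), the livers 704 to 1868 CPM (median 1235) and the 5 kidneys 2549, 2242, 3093, 2841 and 2662 CPM. Cerebellum and liver overlapped in CPM, and cerebellum and kidney did not. Cerebellum was lower than liver at -1.98 ± 0.18 (edgeR adjusted p = 7.80e-09) and lower than kidney at -1.86 ± 0.18 (edgeR adjusted p = 3.83e-08). Kidney against liver was not called (-0.13 ± 0.18, edgeR adjusted p = 0.558), and total counts gave 1.115 (edgeR adjusted p = 1.64e-05). In beaver, livers held 4417 and 3740.4 CPM and brains 2484 and 2544 CPM, which gave -2.07 ± 0.18 on the log2 scale (edgeR adjusted p = 0.000587). Ferritin heavy chain genes have processed copies in many mammals, so reads assigned to Fth1 may include reads of near-identical copies.

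**Figure D3:**
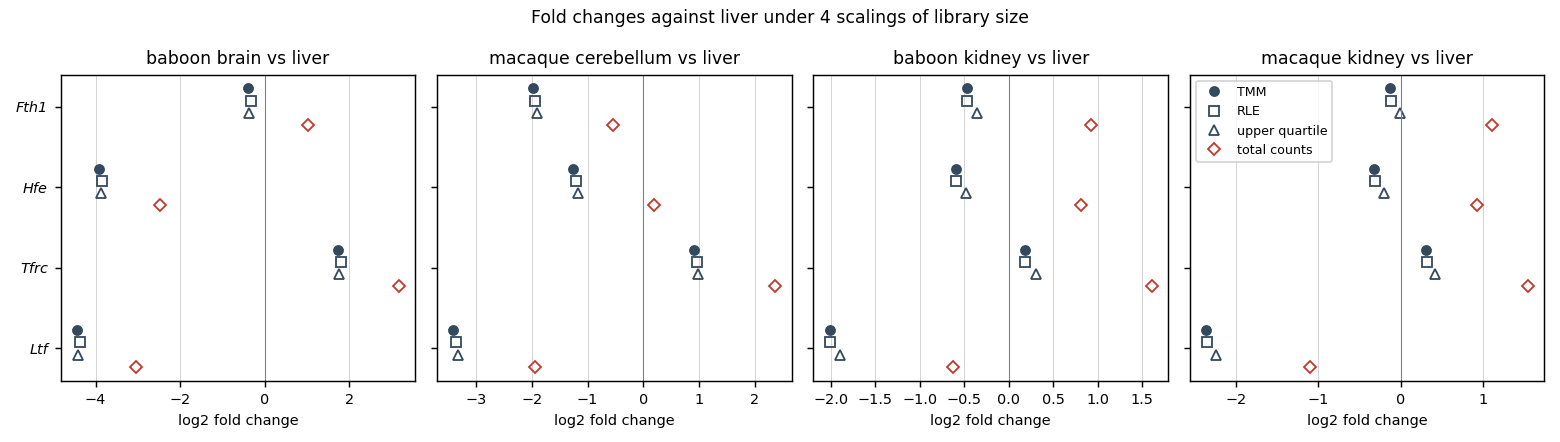
Log2 fold changes (x axis) of Fth1, Hfe, Tfrc and Ltf for 4 comparisons with liver under TMM, RLE, upper-quartile and total-count scaling. The first 3 scalings lie close together, and total counts move each gene to the right, which changes the sign for Fth1 in 3 comparisons and for Hfe in 3.

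Slc40a1, the iron exporter ferroportin, was highest in liver, lower in kidney and lowest in brain or cerebellum in both primates. The 6 baboon livers held 209 to 646 CPM (median 251), the kidneys 75.6 to 269 CPM (median 115) and the brains 8.58 to 17.7 CPM (median 13.5). Kidney overlapped with liver through kidney replicate 5 (269 CPM), and the other 5 kidneys held at most 122 CPM. The log2 fold change was -2.69 ± 0.31 for kidney against liver (edgeR adjusted p = 4.83e-07) and -6.03 ± 0.37 for brain against liver (edgeR adjusted p = 1.92e-11), and -3.33 ± 0.33 for brain against kidney (edgeR adjusted p = 2.64e-08). The 6 macaque livers held 147 to 339.6 CPM (median 236), the 5 kidneys 132, 122, 201, 172 and 184 CPM, and the cerebella 5.45 to 12.7 CPM (median 8.41). Kidney was lower than liver at -1.85 ± 0.24 (edgeR adjusted p = 2.45e-06) and cerebellum lower than liver at -6.25 ± 0.27 (edgeR adjusted p = 3.79e-13) and than kidney at -4.40 ± 0.26 (edgeR adjusted p = 3.23e-11). In beaver, livers held 215 and 261 CPM and brains 38.6 and 38.0 CPM, which gave -4.01 ± 0.19 on the log2 scale (edgeR adjusted p = 0.000136).

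Cp, the plasma ferroxidase ceruloplasmin, had the steepest fall from liver to brain in baboon of the 7 genes. The 6 baboon livers held 2214 to 11584 CPM (median 3663), the kidneys 22.3 to 41.1 CPM (median 31.6) and the brains 1.04 to 8.24 CPM (median 2.71). No organs overlapped. The log2 fold change was -12.04 ± 0.72 for brain (edgeR adjusted p = 1.38e-11) and -8.83 ± 0.64 for kidney (edgeR adjusted p = 7.65e-10) against liver, and -3.21 ± 0.51 for brain against kidney (edgeR adjusted p = 1.42e-05). The 6 macaque livers held 2254 to 3715 CPM (median 2772) and the 5 kidneys 18.5, 25.9, 27.1, 16.9 and 32.0 CPM. Of the cerebella, 5 held 2.33 to 8.78 CPM and replicate 6 held 75.4 CPM, more than any macaque kidney. Cerebellum was lower than liver at -8.97 ± 0.94 (edgeR adjusted p = 7.35e-08), or at -10.82 without replicate 6. Cerebellum against kidney was not called, at -0.81 ± 0.71 (edgeR adjusted p = 0.303). With the replicate block it was -1.88 (edgeR adjusted p = 0.0160), and without cerebellum replicate 6 it was -2.66 (edgeR adjusted p = 1.49e-06). In beaver, livers held 909.6 and 931 CPM and brains 15.8 and 18.4 CPM, which gave -7.12 ± 0.21 on the log2 scale (edgeR adjusted p = 7.11e-05).

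Ltf was low in the primate organs. The 6 baboon livers held 7.51 to 27.8 CPM (median 10.3), the kidneys 7.47 to 12.8 CPM (median 9.12) and the brains 0.867 to 2.87 CPM (median 1.86). Brain was apart from both other organs and lower than liver at -4.45 ± 0.35 (edgeR adjusted p = 8.86e-10) and than kidney at -2.43 ± 0.34 (edgeR adjusted p = 2.41e-06). Kidney overlapped with liver in CPM and was lower at -2.02 ± 0.31 after TMM scaling (edgeR adjusted p = 1.33e-05), but total counts gave -0.62 (edgeR adjusted p = 0.0737). Of the macaque livers, 5 held 0.528 to 3.04 CPM and replicate 6 held 8.44 CPM. The macaque log2 fold change was -3.41 ± 0.69 for cerebellum against liver (edgeR adjusted p = 0.000198), or -2.50 without liver replicate 6, and -2.36 ± 0.70 for kidney against liver (edgeR adjusted p = 0.00683), or -1.45 without it. Total counts gave -1.10 for kidney against liver (edgeR adjusted p = 0.136). In beaver brain, replicate 1 held 43.5 CPM and replicate 2 held 0.525 CPM, on either side of the livers at 3.33 and 3.48 CPM. The beaver comparison was accordingly not called (1.32 ± 1.58, edgeR adjusted p = 0.492), and its sign was set by which brain was kept, with -4.04 without replicate 1 (edgeR adjusted p = 0.0218) and 2.31 without replicate 2 (edgeR adjusted p = 0.0126). The difference of the brain to liver contrast between beaver and baboon for Ltf, 5.76 ± 1.32 (edgeR adjusted p = 0.00280), was 0.36 without beaver brain replicate 1 (edgeR adjusted p = 0.885). For Hfe that difference was -4.59 ± 0.55 (edgeR adjusted p = 1.31e-05) and rests on the 3 read pairs in beaver brain.

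Ratios of counts within a library do not depend on how libraries are scaled, so they were compared between organs with exact two-sided permutation tests over libraries, 18 in all. The log2 ratio of Fth1 to Tfrc counts was 6.54 ± 0.756 (SD, n = 6) in baboon liver, 5.84 ± 0.531 (n = 6) in kidney and 4.37 ± 0.466 (n = 6) in brain. Brain lay below liver in every library, by 4.51-fold (exact permutation p = 0.00216, which is the smallest that 6 against 6 allows, adjusted p = 0.00390), and kidney was not shown to differ from liver (1.62-fold lower, exact permutation p = 0.0996, adjusted p = 0.105). In macaque the ratio was 6.24 ± 0.608 (n = 6) in liver, 6.03 ± 0.675 (n = 5) in kidney and 3.38 ± 0.309 (n = 6) in cerebellum. Cerebellum was 7.26-fold below liver (exact permutation p = 0.00216, adjusted p = 0.00390) and 6.25-fold below kidney (exact permutation p = 0.00433, adjusted p = 0.00519), with no overlap, while kidney and liver overlapped (exact permutation p = 0.606). In both primates, ferritin heavy chain RNA relative to Tfrc RNA was thus lower in brain or cerebellum than in liver, whatever the scaling.

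The ratio of Slc40a1 to Fth1, exporter to storage, separated all 3 organs of each primate. Its log2 value was -1.92 ± 0.409 (SD, n = 6) in baboon liver, -4.17 ± 0.592 (n = 6) in kidney and -7.50 ± 0.306 (n = 6) in brain. In macaque it was -2.33 ± 0.383 (n = 6) in liver, -4.06 ± 0.173 (n = 5) in kidney and -6.63 ± 0.482 (n = 6) in cerebellum. Kidney was below liver by 4.78-fold in baboon (exact permutation p = 0.00216, adjusted p = 0.00390) and by 3.33-fold in macaque (exact permutation p = 0.00433, adjusted p = 0.00519). The ratio of Tfr2 to Tfrc, the liver-type to the general transferrin receptor, was 1737-fold lower in baboon brain than in liver and 1157-fold lower in macaque cerebellum than in liver, without overlap (exact permutation p = 0.00216 and adjusted p = 0.00390 for each).

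**Figure D4:**
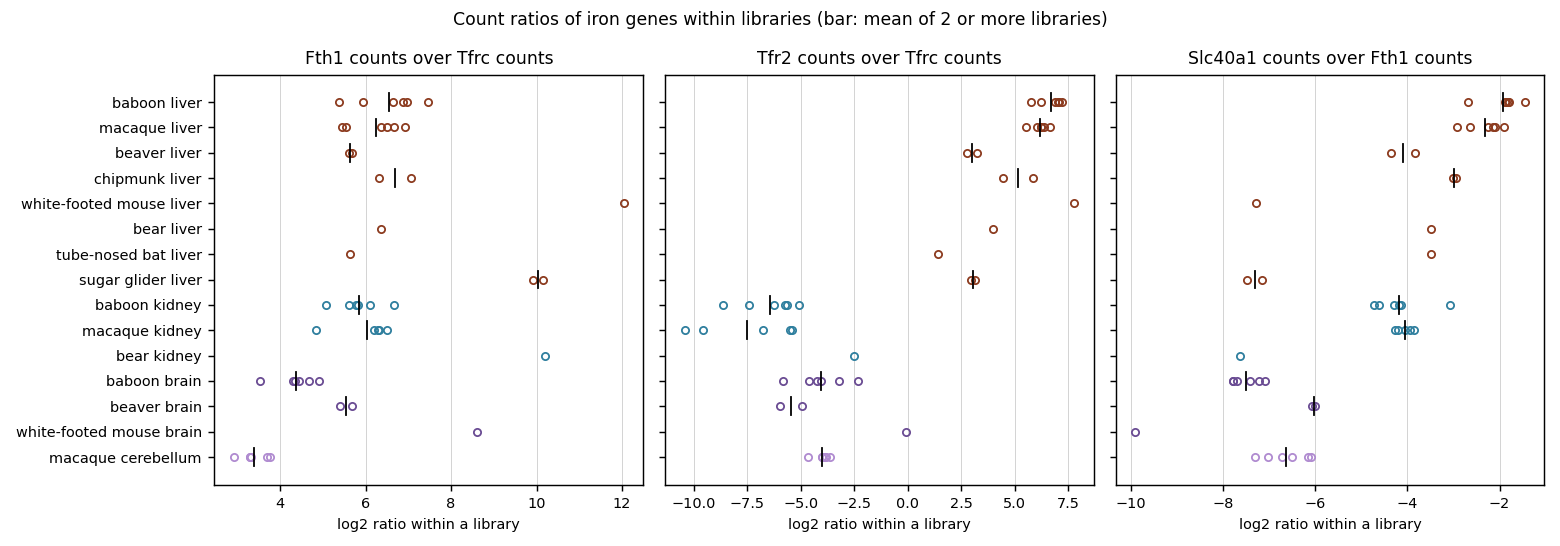
Log2 ratios of counts within each library (x axis, 0.5 counts added to each gene) for Fth1 over Tfrc, Tfr2 over Tfrc, and Slc40a1 over Fth1, by species and organ, with a bar for the mean of 2 or more libraries. Primate brain and cerebellum lie below primate liver in all 3 ratios, and the white-footed mouse liver has the highest Fth1 to Tfrc ratio of the 48 libraries, at 12.04.

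Between baboon and macaque, Ltf was the iron gene called in both liver and kidney. In liver 3 of the 7 were called, where 32.4% of all genes were called, and in kidney 1 of 7, with 21.4% of all genes. Ltf was higher in baboon in both organs, by 2.54 ± 0.51 on the log2 scale in liver (edgeR adjusted p = 0.000608), or 3.46 without macaque liver replicate 6, and by 2.91 ± 0.58 in kidney (edgeR adjusted p = 0.000891). All 6 baboon kidneys (7.47 to 12.8 CPM) lay above all 5 macaque kidneys (0.966, 1.26, 1.34, 0.380 and 2.07 CPM). Hfe was higher in baboon liver by 0.55 ± 0.21 (edgeR adjusted p = 0.0422), a call that was lost in 7 of 12 fits that left out 1 library and with total counts (edgeR adjusted p = 0.0982). Tfr2 (0.31 ± 0.29, edgeR adjusted p = 0.440), Tfrc (-0.18 ± 0.32, edgeR adjusted p = 0.711) and Slc40a1 (0.52 ± 0.29, edgeR adjusted p = 0.179) were not called in liver, and Fth1 gave 0.05 ± 0.19 (edgeR adjusted p = 0.878), or -0.05 with total counts. The step that carried reads of each animal to mouse IDs is not known here, so a difference between species may include a difference in gene models.

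Cp in baboon liver depended on a pair of libraries. Baboon livers 5 and 6 held 9231 and 11584 CPM of Cp, and the other 4 held 2214 to 4010 CPM, a range that holds all 6 macaque livers. The same livers were also the 2 highest of the 6 baboon livers for Tfr2 (1671 and 1549 CPM), Slc40a1 (646 and 388 CPM) and Ltf (21.3 and 27.8 CPM). Cp was higher in baboon by 1.00 ± 0.32 on the log2 scale with all libraries (edgeR adjusted p = 0.0191), by 0.83 without liver replicate 5 (edgeR adjusted p = 0.0531), by 0.70 without replicate 6 (edgeR adjusted p = 0.0722) and by 0.27 without both (edgeR adjusted p = 0.428). Without both, 1 of the 7 iron genes was called between the primate livers. Without both, the Fth1 difference from kidney and brain within baboon was not called either (edgeR adjusted p = 0.160 and 0.257). What distinguishes these livers was not tested. Across the 6 livers of each primate, none of 42 relations between pairs of the 7 genes passed adjustment (lowest adjusted p = 0.117 for Pearson's r, exact permutation). The smallest exact permutation p that 6 livers allow is 0.00278, which becomes 0.117 for a lone relation among 42. A lone relation thus could not pass, however close, and the outcome does not show that the genes are unrelated. The closest was Cp with Ltf, with r = 0.994 in baboon (rho = 0.943, exact permutation p = 0.00556 and 0.0167, and r = 0.959 without the 2 libraries farthest from the median of Cp). In macaque it was r = 0.927 (rho = 1, exact permutation p = 0.00278 for both, and r = 0.823 without 2 libraries). Baboon livers 5 and 6, the 2 libraries left out in baboon, form a separate cluster, so r = 0.994 cannot be read as a trend over 6 libraries. Over the other 4 baboon livers r was still 0.959, without a test.

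**Figure D5:**
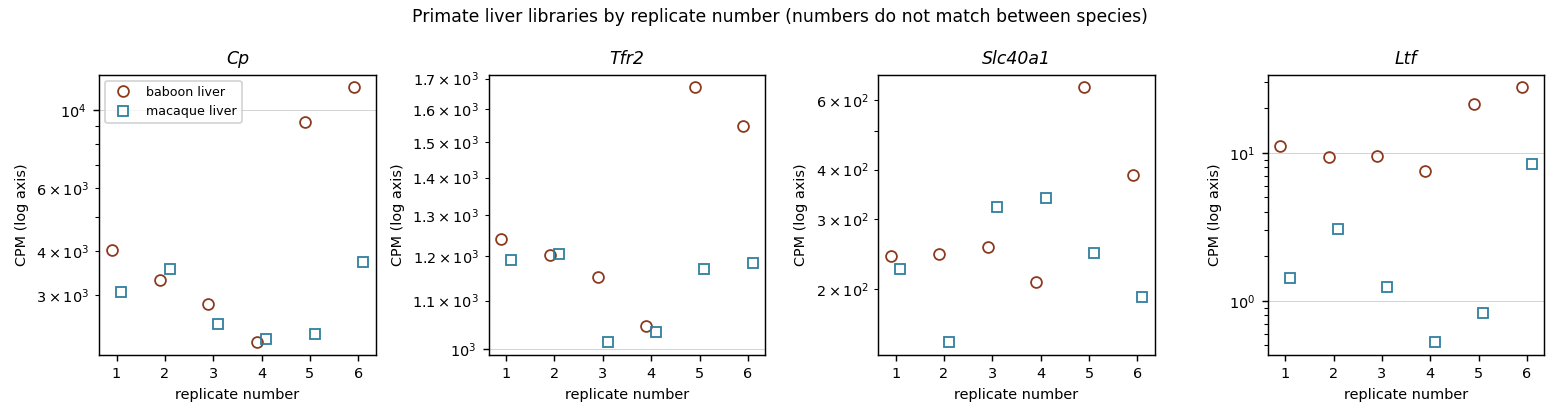
CPM (log axis) of Cp, Tfr2, Slc40a1 and Ltf in the 6 baboon livers and 6 macaque livers, by replicate number (x axis). Baboon livers 5 and 6 are the highest of the 6 for each gene, and macaque liver 6 is the highest macaque liver for Cp and Ltf.

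The liver to kidney contrast was compared between the primates in the same fit of 23 libraries. Of the 7 genes, 0 were called by edgeR's quasi-likelihood test without a block, where 10% of all genes were called. By DESeq2 0 were called too, and 0 had an unadjusted edgeR p under 0.05. Slc40a1 had the largest difference, 0.83 ± 0.41 on the log2 scale (edgeR adjusted p = 0.231), with a larger excess of liver over kidney in baboon. Same-numbered kidneys and livers deviated together in both primates, and with the replicate block Slc40a1 was called at 1.00 (edgeR adjusted p = 0.00659), the single call among the 7. It was also called without baboon kidney replicate 5, the library at 269 CPM, at 1.15 (edgeR adjusted p = 0.0454). Without baboon livers 5 and 6 and with no block, the difference was 0.45 (edgeR adjusted p = 0.531).

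Among the livers of the 8 species, the highest species mean CPM was 5.58-fold the lowest for Tfr2 and 8.29-fold for Slc40a1, against 35.8-fold for Fth1, 37.3-fold for Cp, 51.6-fold for Tfrc and 996-fold for Ltf. Scaled by the TMM factors of the fit of all 48 libraries, the span was 9.35-fold for Tfr2, 3.67-fold for Slc40a1, 26.0-fold for Fth1, 61.5-fold for Cp, 23.3-fold for Tfrc and 1295-fold for Ltf. Tfr2 and Slc40a1 thus had the narrowest spans of these 6 genes on both scales, in an order that turned with the scale. The white-footed mouse liver had the lowest of these factors, 0.318. For Tfr2 the order of mean CPM was baboon (1311 ± 244, SD, n = 6), macaque (1134 ± 85.2, n = 6), chipmunk (910.1 ± 154, n = 2), beaver (662 ± 49.5, n = 2), bear (503), white-footed mouse (388), sugar glider (343 ± 80.8, n = 2) and bat (235). Libraries overlapped between baboon and macaque, macaque and chipmunk, and white-footed mouse and sugar glider. This order is of CPM. On TMM-scaled CPM the white-footed mouse liver (1222) lay above bear (1036) and beaver (1013) and apart from sugar glider (404). Slc40a1 ran from bat (392.4 CPM) to bear (228 CPM) with overlap between most neighbours, and white-footed mouse alone lay far below at 47.3 CPM (exact 95% Poisson interval 42.2 to 53.0, counting error only). On TMM-scaled CPM it held 149, against 316 in sugar glider, the next species.

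Beaver liver was set against the mean of the baboon and macaque livers, which came from the same collection. It called 5 of the 7 iron genes, where 51.8% of all genes were called. Tfrc was higher in beaver by 2.40 ± 0.28 on the log2 scale (edgeR adjusted p = 2.44e-06), Hfe by 2.30 ± 0.22 (edgeR adjusted p = 3.68e-07) and Fth1 by 1.67 ± 0.24 (edgeR adjusted p = 2.14e-05). For these 3 genes both beaver livers lay above all 12 primate livers. Tfr2 was lower at -0.96 ± 0.20 (edgeR adjusted p = 0.000566), a call lost in the fit of all 48 libraries (edgeR adjusted p = 0.0640). Cp was lower at -2.19 ± 0.60 (edgeR adjusted p = 0.00531), a call lost without either beaver liver (edgeR adjusted p = 0.0576 without replicate 1 and 0.0510 without replicate 2).

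Chipmunk and beaver, the rodents with 2 livers each, differed in 2 of the 7 genes, where 40.7% of all genes were called. Chipmunk livers held 36.3 and 17.4 CPM of Tfrc against 90.9 and 73.5 CPM in beaver, which gave -1.81 ± 0.45 on the log2 scale (edgeR adjusted p = 0.00432), not called without chipmunk replicate 2 (-1.42, edgeR adjusted p = 0.0712). Ltf was higher in chipmunk, with 27.9 and 24.3 CPM against 3.33 and 3.48 CPM in beaver (2.77 ± 1.04, edgeR adjusted p = 0.0430), a call lost without any 1 of the 4 libraries. The 2 chipmunk livers differed from each other in Cp, at 573 and 1719 CPM. Fth1 was not called (-0.82 ± 0.36, edgeR adjusted p = 0.0777), but DESeq2 called it (-0.83, adjusted p = 0.0436).

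Sugar glider, the marsupial, lay outside the CPM range of the placental livers in Fth1 and Hfe. Its livers were set against the mean of the 7 placental species, and 5 of the 7 iron genes were called, where 50.8% of all genes were called. Fth1 held 42259 and 43171 CPM, 4.27% ± 0.0645 of all counts (SD, n = 2), against 704 to 7388 CPM in the 19 placental livers. The log2 fold change was 3.44 ± 0.23 (edgeR adjusted p = 1.79e-09). Hfe had 0 counts in both libraries, against species means of 3.59 to 35.9 CPM in placental liver. Against a floor of 3 read pairs (6 counts) over both libraries, Hfe was at least 55.5-fold lower on CPM than the geometric mean of the placental species. Against the lowest placental species mean it was at least 14.6-fold lower. On the TMM scale of the liver fit, which gave edgeR adjusted p = 3.84e-09, these bounds were 78.2-fold and 24.8-fold. Whether the gene has an assigned counterpart in the sugar glider annotation was not tested. Tfr2 was lower at -1.38 ± 0.20 (edgeR adjusted p = 1.94e-05) and Cp at -1.54 ± 0.57 (edgeR adjusted p = 0.0309), the latter not called with total counts (edgeR adjusted p = 0.127), in the fit of all 48 libraries (edgeR adjusted p = 0.135) or without sugar glider replicate 2 (-1.11, edgeR adjusted p = 0.274). Without replicate 1, Cp gave -2.15 (edgeR adjusted p = 0.0477). Ltf was 92.1 and 603 CPM in the 2 livers, higher by 3.37 ± 0.61 (edgeR adjusted p = 0.000169), by 4.17 without replicate 1 and by 1.42 without replicate 2 (edgeR adjusted p = 0.179). Slc40a1 (-0.22 ± 0.34, edgeR adjusted p = 0.709, or 0.28 with total counts) and Tfrc (0.43 ± 0.33, edgeR adjusted p = 0.323, or 0.92 and adjusted p = 0.0213 with total counts) were not called.

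Bear and white-footed mouse gave 1 library per organ, so their organ differences have no replicate check and are ratios of CPM with exact 95% binomial counting intervals. In bear, 7 of the 7 genes differed by 2-fold or more between kidney and liver, where 61.7% of all genes did. Ltf reached 2571 CPM in bear liver, the highest of the 48 libraries, and was 692-fold higher than in bear kidney at 3.71 CPM (476 to 1051). Tfr2 was 406-fold higher in bear liver (214 to 889) and Cp 44.0-fold (37.6 to 51.8). Unlike in primate CPM, Tfrc was 4.38-fold higher in liver than in kidney (3.24 to 6.05), with 31.4 against 7.15 CPM. Fth1 was 3.28-fold higher in kidney (3.23 to 3.33), with 8451 against 2576 CPM. On TMM-scaled CPM the ratio of kidney to liver for Fth1 was smaller, at 2.37 (2.33 to 2.41). The ratios of liver to kidney were then larger, at 6.06 for Tfrc (4.48 to 8.37), 957 for Ltf, 561 for Tfr2 and 60.8 for Cp.

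In white-footed mouse, 6 of the 7 genes had counts in both organs and differed by 2-fold or more between brain and liver. The share of all genes was 77.1%, which also counts genes with 0 counts in brain or in liver. Hfe, with 0 counts in brain, is left out of the 6 and would pass by that rule. Tfrc was higher in brain, with 6.32 CPM against 1.72 CPM in liver, a ratio of 3.69 (1.68 to 8.52), and this liver had the lowest Tfrc level of the 48 libraries. Tfr2 was 64.6-fold higher in liver (41.3 to 108), Cp 126-fold (76.4 to 226) and Slc40a1 18.7-fold (9.39 to 43.8). Fth1 was 2.94-fold higher in liver (2.87 to 3.01), at 7388 CPM. Hfe had 0 counts in brain, which allows up to 0.948 CPM (3 read pairs), and was at least 3.78-fold higher in liver on CPM. Ltf had 1 read pair in brain, and its ratio of liver to brain was 30.1 (5.20 to 1208). On TMM-scaled CPM the ratios of liver to brain were larger, at 5.41 for Fth1 (5.28 to 5.54), 119 for Tfr2, 232 for Cp and 34.4 for Slc40a1. The ratio of brain to liver for Tfrc was then 2.01, with a counting interval of 0.916 to 4.63 that includes 1.

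Over the 15 means of species and organ, the levels of Tfr2 and Cp followed each other most closely of the 21 pairs among the 7 genes, with a Pearson correlation of 0.905 on log2(CPM + 1). Slc40a1 correlated at 0.773 with Cp and at 0.600 with Tfr2, and Tfrc correlated at -0.16 with Tfr2 and at -0.16 with Fth1. Among 11487 genes that reached 20 CPM in a group, the gene most like Tfr2 was ENSMUSG00000033860 (0.985), the most like Cp was ENSMUSG00000063232 (0.956), the most like Slc40a1 was ENSMUSG00000001435 (0.958) and the most like Tfrc was ENSMUSG00000042202 (0.946). These points share species, organ and library composition, and the correlations are a description without a test.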

How the data were processed

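Total RNA of 48 frozen organ samples was sequenced, and the authors deposited raw read counts per gene in 1 table keyed by mouse Ensembl IDs. STAR and featureCounts are named, without roles or versions, in the submitters' processing notes. Neither the genome builds nor the step from each species' reads to mouse IDs is stated there. Between 94.3% and 99.4% of low counts per library were even, so 2 counts were taken as 1 read pair and a floor of 3 read pairs as 6 counts. Intervals and floors cover counting error only.

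Samples were grouped by the labelled species and organ. CPM is the count over the library's total count. Tests were edgeR 4.0.16 quasi-likelihood F tests (R 4.3.3, TMM scaling, default filter on low counts), with Benjamini-Hochberg adjustment over all genes tested and a threshold of 0.05. The script was tested on simulated baboon counts with a shared mean profile and 200 genes changed in brain. That setting cannot check the scaling between organs as unlike as these. Liver comparisons across species used all 21 livers. Ratios within a library, with 0.5 counts added, were compared by exact permutation tests, adjusted over 18. Genes alike in pattern were ranked by Pearson correlation of log2(CPM + 1) over 15 groups. The alternatives were RLE and upper-quartile factors, no filter, DESeq2 1.42.0, each library left out, a replicate block and all libraries in 1 fit. Total-count scaling, the fit without baboon livers 5 and 6, and the beaver to baboon difference were chosen after seeing the data. The 10 genes and the other lists were chosen with earlier results of these data known, and all measured members are named. Lists of pathway and marker genes given by symbol could not be matched to the IDs and are not reported.

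Replicate numbers were taken to pair organs where every same-numbered pair of libraries deviated together (correlation over 0.1). This held for kidney and liver of baboon (lowest 0.100427) and macaque (lowest 0.227) and for macaque cerebellum and kidney (lowest 0.133), from the data and not from the labels. Baboon brain and liver ran from 0.039 to 0.099 and macaque cerebellum and liver from 0.056 to 0.100, so they missed this cut. In both, 6 of 6 libraries still matched best with their own number, so these organs may be paired as well.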

Additional observations from a re-analysis of the deposited data

Results flagged for a closer look

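Dixon's test was run on each gene in each group of 4 to 10 libraries, or 42 sets. In 5 of the 42, 1 library stood apart from the others, each time as the highest. A nominal rate of 1 in 20 gives 2.1 sets. The sets share libraries and were tested on CPM without a log, so 2.1 is not an exact chance rate. Macaque cerebellum replicate 6 held 75.4 CPM of Cp. Macaque liver replicate 6 held 8.44 CPM of Ltf and 25.8 CPM of Tfrc. Macaque kidney replicate 3 held 108.5 CPM of Tfrc. Baboon kidney replicate 5 held 269 CPM of Slc40a1.

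The brain to liver contrast differed between beaver and baboon for 6 of the 7 iron genes in the edgeR test of the difference itself, a comparison added after the values were seen. The log2 differences, beaver minus baboon, were -3.71 for Tfrc, -1.68 for Fth1, 2.00 for Slc40a1, -4.59 for Hfe, 4.89 for Cp and 5.76 for Ltf. The Ltf difference was 0.36 without beaver brain replicate 1 (edgeR adjusted p = 0.885).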

How the results depend on the processing

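Of 269 counts of called iron genes under alternatives, 260 stayed within 1.5 times of the reported count. With at most 7 genes this rule is coarse. A fall from 7 to 6, as in baboon brain against liver with RLE factors, stays within it. A count can also stay the same while its genes change. For baboon against macaque liver, 3 genes were called, 1 without baboon livers 5 and 6, and 1 to 3 with each library left out (1 without baboon liver replicate 6). For the liver to kidney difference between the primates, 0 were called, 1 with the replicate block, and 0 to 1 with each library left out (1 without baboon kidney replicate 5). For chipmunk against beaver, 2 were called, and 0 to 1 with each library left out. For sugar glider, 5 were called, and 3 to 5 with each library left out (3 without replicate 2). Over all genes, beaver brain against liver called 8576, and 5519 or 5522 without brain replicate 1 or 2, where 1 brain is assumed to vary like the livers.

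Total counts changed the sign of log2 fold changes against liver for Fth1 in baboon brain (1.02), baboon kidney (0.92) and macaque kidney (1.115), and for Hfe in baboon kidney (0.81), macaque cerebellum (0.20) and macaque kidney (0.93). They also did so for Fth1 between primate livers (-0.051), the Tfrc difference of liver and kidney between primates (-0.056), Hfe of chipmunk against beaver (0.13) and Slc40a1 of sugar glider (0.28). The upper quartile gave -0.017 for Fth1 in baboon brain against kidney. Without baboon livers 5 and 6, Fth1 between primate livers was -0.13 and the Cp difference of liver and kidney -0.065.

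With the replicate block, the Tfrc difference of liver and kidney between primates was -0.18 and Ltf in beaver brain against liver -0.29, where 2 pairs are too few to show pairing. Fth1 in baboon brain against liver, whose numbers fell under the cut for pairs, was -0.39 with the block and not called (edgeR adjusted p = 0.0656). The block changed no other call or sign than these and the 3 given with the results.

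With each library left out, ranges that crossed 0 were as follows. Fth1 in baboon brain against kidney ran from -0.0061 to 0.17. Tfrc in macaque kidney against liver ran from -0.27 to 0.51. Ltf in beaver brain against liver ran from -4.04 to 2.31. Between primate livers, Tfrc ran from -0.38 to 0.035 and Fth1 from -0.066 to 0.18. Between primate kidneys, Tfrc ran from -0.45 to 0.28. For the liver to kidney difference, Tfr2 ran from -0.55 to 0.21, Tfrc from -0.46 to 0.34 and Ltf from -0.64 to 0.57. For chipmunk against beaver, Hfe ran from -0.45 to 0.52 and Cp from -0.93 to 0.86. The cause of these changes was not tested. Depth limits values that rest on few read pairs, such as those of Tfr2 in kidney, Hfe in beaver brain, and Ltf in macaque cerebellum and white-footed mouse brain.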
